A study of Mus musculus with 20 samples.

Results

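Calprotectin and the epithelial acute-phase defence genes are 10 mouse genes followed here in colonic organoid (colonoid) cultures: S100a8, S100a9, Lcn2, Saa1, Saa3, Nos2, Duox2, Duoxa2, Pigr and C3. They were listed by gene symbol, and the transcripts of each symbol were summed. Their group name does not state the cells of origin, which bulk values do not show. All 10 were found among 35240 gene symbols, and 9 of them were among the 13539 genes with a mean of at least 1 that were tested. S100a9 averaged 0.419 and was not tested. The list was selected on earlier results of these same expression values, without a record of which comparison was used. Every comparison is therefore treated as used, and the differences and adjusted p-values of the members describe them and do not test the list. No threshold was part of the choice.

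The study asked what loss of TNFR2, a tumor necrosis factor receptor whose gene is Tnfrsf1b, does to colonoids as they grow after passage. Bulk mRNA was sequenced from cultures of C57BL/6 wild-type (WT) mice and of Tnfr2-/- mice, which carry a whole-body Tnfrsf1b tm1Mwm deletion on a B6.129S2 background. Cultures were collected on day 1, 2, 3, 5 or 7 after the last passage (DPP, days post-passage). The 20 libraries form 10 groups of 2, and the replicate number was read as 1 mouse per genotype followed over the 5 days, so WT mouse 1 and Tnfr2-/- mouse 1 are different animals. Cultures of both genotypes came from colonic crypts of young adult mice of either sex by the study's culture methods, grew in Matrigel under Intesticult, were passaged 5 times and were seeded through a mesh filter. No cytokine or microbe was added in any group. By design the deletion is not limited to a cell type, so epithelial and stromal loss are not separated. The days 1, 2 and 3 are called early, and 5 and 7 are called late.

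Calprotectin is the heterodimer of the S100A8 and S100A9 proteins, which binds zinc and manganese and thereby starves microbes of them, and fecal calprotectin, mostly from neutrophils, is a clinical marker of gut inflammation. Inflamed gut epithelium also makes lipocalin-2, which captures bacterial iron carriers, serum amyloid A proteins, hydrogen peroxide from DUOX2, nitric oxide from NOS2, complement C3, and the receptor that carries IgA to the lumen. Several of these genes are known targets of C/EBP, NF-kappaB and STAT transcription factors downstream of IL-1, IL-6, IL-17, IL-22 and TNF.

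The upstream sequences of 6 members are shown, namely the 5 windows with a match to a C/EBP motif and that of S100a8. Each is the 250 bases before the RefSeq start site on GRCm38.p6, given 5′ to 3′ on the strand of the gene, with capitals marking matches to the C/EBP motif TTGCNNAA on either strand. The positions are chr3:90668821-90669070 on the plus strand for S100a8, chr3:90695722-90695971 on the minus strand for S100a9, chr2:32387740-32387989 on the minus strand for Lcn2, chr7:46742981-46743230 and chr7:46715677-46715926 on the minus strand for Saa1 and Saa3, and chr17:57228137-57228386 on the minus strand for C3.
S100a8: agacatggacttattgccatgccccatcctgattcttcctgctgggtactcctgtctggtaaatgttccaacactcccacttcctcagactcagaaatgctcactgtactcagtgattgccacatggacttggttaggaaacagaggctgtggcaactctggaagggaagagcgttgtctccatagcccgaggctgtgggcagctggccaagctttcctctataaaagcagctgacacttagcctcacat
S100a9: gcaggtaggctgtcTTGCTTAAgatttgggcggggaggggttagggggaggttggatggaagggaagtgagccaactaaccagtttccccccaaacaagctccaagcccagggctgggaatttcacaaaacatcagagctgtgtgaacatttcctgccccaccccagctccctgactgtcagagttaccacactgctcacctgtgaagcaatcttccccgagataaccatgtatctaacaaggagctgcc
Lcn2: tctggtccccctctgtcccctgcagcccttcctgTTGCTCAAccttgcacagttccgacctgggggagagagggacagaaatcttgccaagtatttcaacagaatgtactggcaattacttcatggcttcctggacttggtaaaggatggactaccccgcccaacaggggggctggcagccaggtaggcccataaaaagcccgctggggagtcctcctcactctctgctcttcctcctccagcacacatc
Saa1: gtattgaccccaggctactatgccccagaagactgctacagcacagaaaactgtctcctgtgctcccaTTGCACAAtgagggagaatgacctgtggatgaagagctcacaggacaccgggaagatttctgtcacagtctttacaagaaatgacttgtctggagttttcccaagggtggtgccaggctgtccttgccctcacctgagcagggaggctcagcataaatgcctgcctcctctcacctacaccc
Saa3: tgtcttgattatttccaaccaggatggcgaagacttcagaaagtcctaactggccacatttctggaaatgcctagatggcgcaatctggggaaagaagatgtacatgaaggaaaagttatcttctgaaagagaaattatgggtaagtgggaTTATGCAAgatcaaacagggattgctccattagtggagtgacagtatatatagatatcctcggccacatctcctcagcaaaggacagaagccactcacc
C3: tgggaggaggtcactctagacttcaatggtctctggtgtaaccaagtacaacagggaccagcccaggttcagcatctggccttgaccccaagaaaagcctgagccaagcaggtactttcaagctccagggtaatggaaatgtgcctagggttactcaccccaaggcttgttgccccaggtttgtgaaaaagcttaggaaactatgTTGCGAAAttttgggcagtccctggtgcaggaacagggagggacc

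The C/EBP motif lay in 5 of the 9 member windows that the RefSeq table held, namely those of S100a9, Lcn2, Saa1, Saa3 and C3, and in 9.55% of all 27025 windows of that length. The windows of S100a8, Duox2, Duoxa2 and Pigr held no such letters, and of these only that of S100a8 is printed. A 10-base NF-kappaB motif (GGGA, any 2 bases, TTCC, on either strand) was in 0 of 9 member windows and 1.17% of all windows, and TTCNNNGAA for STAT was in 0 of 9 and 7.18%. These are letter matches within short windows and say nothing of binding.

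In the GENCODE annotation of GRCm38, S100a8 spans chr3:90668978-90670035 and S100a9 chr3:90692632-90695721 on the opposite strand, 22596 bases apart. Saa3 at chr7:46711998-46715700 and Saa1 at chr7:46740497-46742980 lie 24796 bases apart on the same strand. Duox2 at chr2:122279247-122298449 and Duoxa2 at chr2:122298900-122302885 start head to head, with 450 bases between them. Lcn2 lies at chr2:32384633-32388252, Nos2 at chr11:78920787-78960254, Pigr at chr1:130826684-130852249 and C3 at chr17:57203970-57228136. By these spans the printed RefSeq window of Lcn2 lies within its gene. The windows of S100a8 and Saa3 reach into theirs, so the RefSeq and GENCODE starts differ there.

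Values are TPM, an abundance per transcript length, which the authors divided by 1 size factor for each library. They are called normalised expression here. Differences are on the scale of log2(value + 1), from limma fits over all tested genes, and a gene is called at a Benjamini-Hochberg adjusted p under 0.05. The libraries summed to between 900655 and 1111080 and held between 13007 and 13469 genes at 1 or more. The files hold no read numbers behind the values, so the counting error of low values was not computed. Within the groups, the Pearson r between both mice, taken across genes, lay between 0.9229 and 0.9563. Tnfrsf1b itself was between 11.1 and 21.9 in the WT and between 2.71 and 11.5 in the Tnfr2-/- libraries, and lower in Tnfr2-/- at each of the 5 days. It was thus measured in every Tnfr2-/- library and rose there late (1.02 ± 0.181, limma adjusted p = 0.00191). By qPCR, an unlike measure, the paper found no Tnfr2 transcript in knockout colonoids. The value used here sums all listed transcripts of Tnfrsf1b and does not show whether an intact one was present. Its late genotype difference of −0.79 ± 0.198 (limma adjusted p = 0.0323) lost its call in 8 of 24 fits that left out a library or a mouse.

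The gene group differed widely in level. Saa3 was the highest member in both genotypes, at 1332 ± 1100 (SD, n = 10) in WT and 2622 ± 1380 (n = 10) in Tnfr2-/- libraries. C3 at 97.4 ± 33.1 and Lcn2 at 92.4 ± 70.0 followed in WT and did not differ beyond their spread. They were followed by Saa1 at 52.5 ± 78.1, Pigr at 29.8 ± 49.8 and S100a8 at 24.9 ± 41.1, whose ranges overlapped. Nos2 at 5.57 ± 7.17 and Duoxa2 at 5.39 ± 12.2 were low and overlapped with Duox2, which averaged 8.72.
In Tnfr2-/- libraries Lcn2 came second at 226 ± 173, above C3 at 160 ± 65.6 in 8 of 10 libraries. S100a8 at 62.1 ± 45.9 ranked 4th, ahead of Saa1 at 25.2 ± 32.9. Nos2, Duox2, Pigr and Duoxa2 lay between 6.71 and 8.97 on average and could not be ordered. In the late Tnfr2-/- libraries all 4 values of S100a8 were above every WT value of S100a8 after 1 DPP and above the late Tnfr2-/- values of Nos2, Duox2, Duoxa2 and Pigr.

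**Figure D1:**
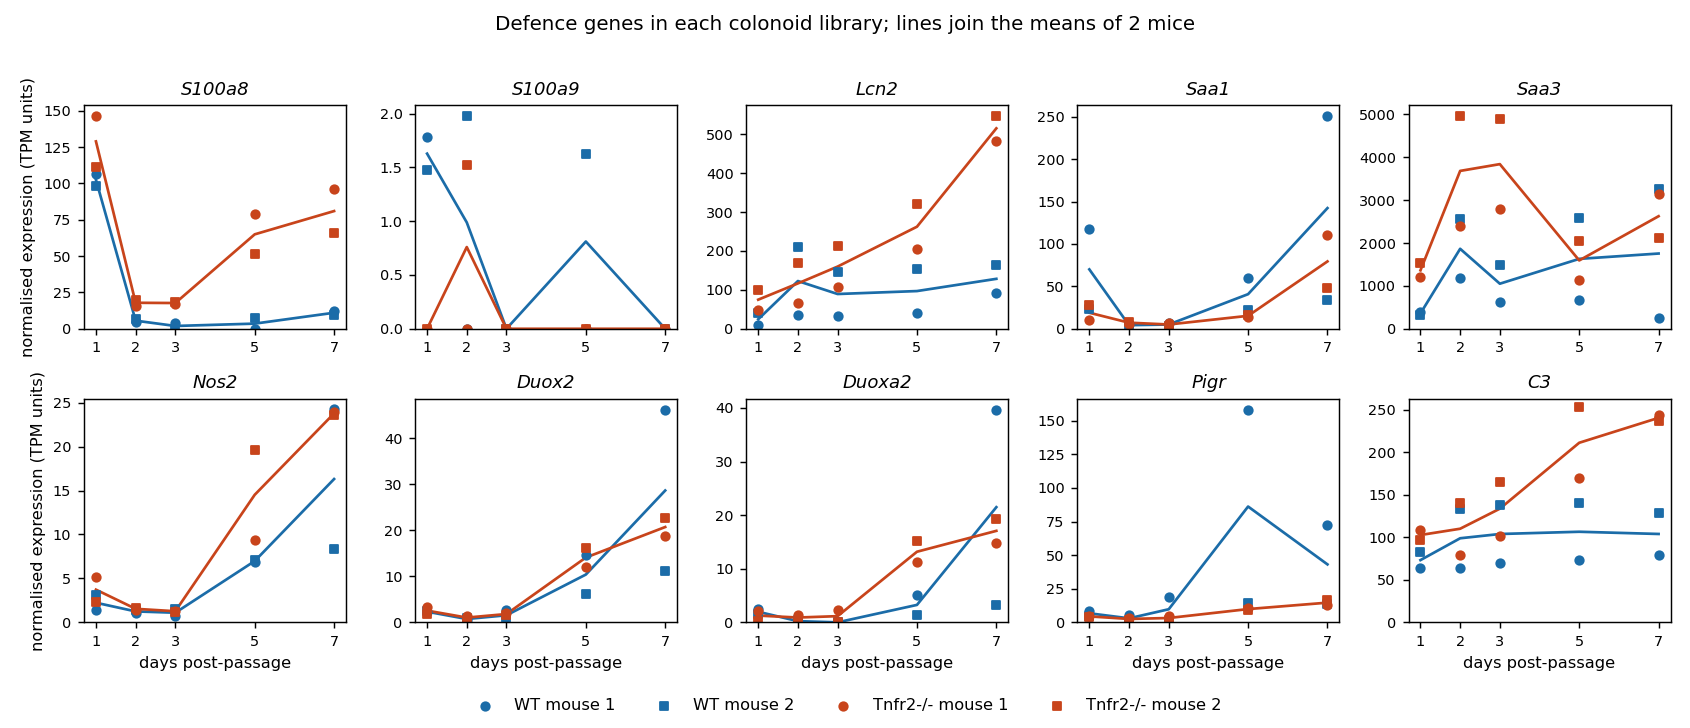
Normalised expression (TPM units, linear axes starting at 0) of each of the 10 genes against days post-passage; circles are mouse 1 and squares mouse 2 of each genotype, WT in blue and Tnfr2-/- in red, and lines join the means of 2 mice. From 2 to 7 DPP no WT library passed 12.5 for S100a8, while the Tnfr2-/- libraries at 5 and 7 DPP lay between 51.3 and 95.9.

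S100a8, the calcium-binding subunit that pairs with S100A9, showed the widest genotype difference of the 9 tested members. In WT mouse 1 it stood at 107, 4.68, 3.85, 0 and 12.5 at 1, 2, 3, 5 and 7 DPP, and in WT mouse 2 at 98.2, 6.47, 0, 7.08 and 9.59. In Tnfr2-/- mouse 1 it stood at 146, 15.9, 16.8, 78.6 and 95.9, and in mouse 2 at 112, 19.9, 18.6, 51.3 and 66.1. All 4 mice were high at 1 DPP and low at 2 DPP, and the Tnfr2-/- mice were high again at 5 and 7 DPP while the WT mice were not. Both Tnfr2-/- values exceeded both WT values at each of the 5 days, a pattern held by 0.997% of all genes tested. The log2 difference between genotypes was 0.32, 1.53, 3.09, 4.51 and 2.76 in that order of days. Its late difference was 3.63 ± 0.543 (SE, 4 against 4 libraries, limma adjusted p = 0.00199), 12.4-fold on the scale of value + 1. At the early days it was 1.64 ± 0.443 (limma adjusted p = 0.106), and the change from early to late, 1.99 ± 0.701, did not pass (limma adjusted p = 0.287). With only the means of each mouse compared, 2 against 2, the late difference had an adjusted p of 0.196.

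S100a9, the other calprotectin subunit, was at 0 in 15 of 20 libraries and nowhere above 1.98. Its values above 0 were 1.78 and 1.48 in WT at 1 DPP, 1.98 in WT mouse 2 and 1.52 in Tnfr2-/- mouse 2 at 2 DPP, and 1.62 in WT mouse 2 at 5 DPP. It was listed at 0 in all 4 late Tnfr2-/- libraries, where S100a8 was between 51.3 and 95.9. S100a8 was thus measured at length and S100a9 hardly at all, and the label calprotectin is used here for the genes and not for the protein complex. Neither gene shared a stretch of 31 bases with another gene's transcripts.

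Neutrophils are the usual source of both subunits, and their markers were measured in the same libraries. Csf3r and Elane were at 0 in all 20 libraries, and Mpo was at or below 1.56. Camp and Ngp did not exceed 0.917, and Itgam and Cxcr2, which averaged lower in Tnfr2-/- than in WT libraries both early and late, did not exceed 2.22 and 1.76. Of the 8 markers only Ly6g, a Ly6 family gene, passed the mean of 1, at between 74.8 and 900.1. The list summed to between 76.0 and 902.6, nearly all of it Ly6g. Ly6g was above WT in Tnfr2-/- cultures at 3 of 5 days, and 9.83% of all genes were so at 3 or more days. Over all days Ly6g was 0.64 ± 0.195 higher, which just missed (limma adjusted p = 0.0535). The 5 pan-leukocyte markers, among them Ptprc, which encodes CD45, summed to at most 5.88 in any library.

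Lcn2, which encodes the iron-carrier trap lipocalin-2, was higher in Tnfr2-/- cultures and differed strongly between the WT mice. WT mouse 1 had 9.33, 36.3, 33.9, 40.7 and 92.7 at 1, 2, 3, 5 and 7 DPP, against 39.5, 209, 145, 153 and 164 in WT mouse 2. Tnfr2-/- mouse 1 had 48.8, 65.1, 106, 205 and 483, against 101, 168, 213, 320 and 547 in mouse 2. Both Tnfr2-/- mice exceeded both WT mice at 1, 5 and 7 DPP, as C3 did too, and 9.83% of all genes did so at 3 or more days. At 2 and 3 DPP WT mouse 2 lay among or above them. Over all days the difference was 1.37 ± 0.394 (10 against 10 libraries, limma adjusted p = 0.0412). It was 1.87 ± 0.655 at the late days, where the groups did not overlap, with an adjusted p of 0.11. Both WT mice weighed on this result, since the all-day difference was 0.45 without WT mouse 1 and 2.3 without WT mouse 2. The all-day call was lost in 17 of 24 fits that left out a library or a mouse, and without 1 DPP. Its adjusted p was 0.511 on mouse means and 0.0679 when the mouse was a correlated block.

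C3, the central protein of the complement cascade, behaved like Lcn2 across libraries. In WT mouse 1 it was 63.7, 64.4, 70.0, 73.0 and 79.8, and in WT mouse 2 it was 82.8, 134, 138, 140.3 and 128 at the 5 days. Tnfr2-/- mouse 1 had 109, 79.8, 102, 169 and 244, and Tnfr2-/- mouse 2 had 96.7, 141, 166, 253 and 237. Within each WT mouse the values changed little from 2 DPP on, and all 4 late Tnfr2-/- values were above all 10 WT values. The late difference was 1.13 ± 0.311 (limma adjusted p = 0.0463) and the all-day difference 0.67 ± 0.197 (limma adjusted p = 0.0459). Each call was lost in 17 of 24 fits that left out a library or a mouse. The difference was lowest without WT mouse 1, at 0.27 over all days and 0.73 late, and highest without WT mouse 2, at 1.07 and 1.54. On mouse means the limma adjusted p was 0.486 over all days and 0.29 late. When the mouse was a correlated block it was 0.083 over all days and 0.0389 late, the latter a call.

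Among the 9 tested members, 3 were called higher in Tnfr2-/- over all days, S100a8, Lcn2 and C3, against 7.6% of all genes in either direction and 4.51% higher. At the late days 2 of 9 were called, S100a8 and C3, against 6.45% of all genes and 3.8% higher. S100a8, Lcn2 and C3 were the 3 members whose late groups did not overlap, higher in Tnfr2-/-, against 5.35% of all genes. At the early days 0 of 9 members were called by limma, against 1.2% of genes. S100a8 and Saa3 had an unadjusted p under 0.05 there, at 0.00249 and 0.00982. The interaction of genotype and phase called 0 of 9, against 0.148% of genes, and S100a8 had an unadjusted p of 0.0136. The median log2 difference of the 9 members was 0.65 over all days and 0.87 at the late days, beside −0.029 and −0.047 for all genes tested.

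**Figure D2:**
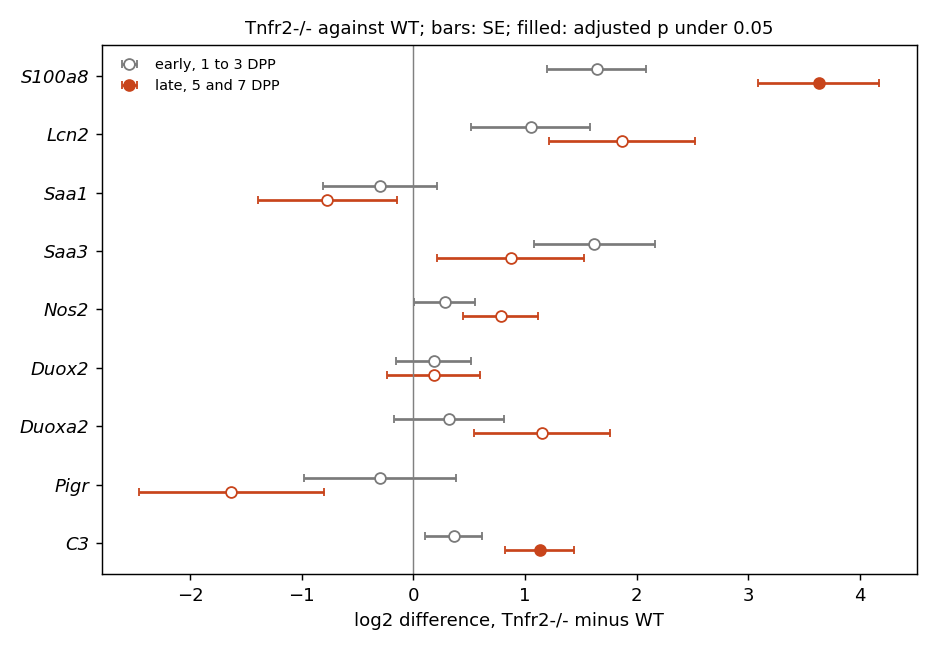
Log2 difference between Tnfr2-/- and WT cultures (x axis, Tnfr2-/- minus WT, bars are 1 SE) for the 9 tested members, in grey for the early days and in red for the late days, with filled symbols for an adjusted p under 0.05. S100a8 at 3.63 and C3 at 1.13 were the filled late symbols, and Saa1 and Pigr lay below 0 with errors that kept them from being called.

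The serum amyloid A genes encode small acute-phase apolipoproteins, SAA1 being also a liver product and SAA3 mainly a local one in mice. Saa3 in WT mouse 1 was 389, 1173, 617, 672 and 247, and in WT mouse 2 it was 328, 2559, 1486, 2590 and 3264 at the 5 days. Tnfr2-/- mouse 1 had 1200, 2393, 2792, 1146 and 3140, and mouse 2 had 1527, 4974, 4891, 2043 and 2113. The WT mice were close at 1 DPP and far apart at 7 DPP, where WT mouse 2 was the highest of the 4. Both Tnfr2-/- values were above both WT values at 1 and 3 DPP. At 3 or more days 9.83% of all genes did so, so 2 such days do not set Saa3 apart. The all-day difference of 1.32 ± 0.398 just missed (limma adjusted p = 0.0512). It was 0.54 without WT mouse 1 and 2.1 without WT mouse 2. Its adjusted p was 0.0475 with median-of-ratios scaling, which is a call, and 0.459 on mouse means.

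Saa1 moved otherwise. WT mouse 1 had 117 at 1 DPP, 5.46 and 6.76 at 2 and 3 DPP, 59.4 at 5 DPP and 251 at 7 DPP, and it was above WT mouse 2 at all 5 days. WT mouse 2 had 23.0, 3.02, 3.28, 22.3 and 33.7 at those days. The Tnfr2-/- mice lay between 3.56 and 28.0 up to 5 DPP and reached 111 and 48.4 at 7 DPP. All 4 mice thus had low Saa1 at 2 and 3 DPP and more at 7 DPP, and the genotypes overlapped over all days (−0.49 ± 0.398, limma adjusted p = 0.508). Late against early, Saa1 rose by 2.35 ± 0.571 in WT (limma adjusted p = 0.0118), a call lost without either late library of WT mouse 1, and by 1.88 ± 0.571 in Tnfr2-/- (limma adjusted p = 0.0331). Over the 20 libraries the log2 values of Saa1 and Saa3 had a Pearson r of −0.472. Of the 31-base words in the main Saa1 transcript 26.8% also occur in Saa2, so reads could be exchanged between these, and Saa2 was listed at no more than 3.11.

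The oxidant members Duox2, Duoxa2 and Nos2 shared 1 course. DUOX2 makes hydrogen peroxide at the apical membrane, DUOXA2 is the maturation factor it needs to leave the endoplasmic reticulum, and NOS2 makes nitric oxide. Duox2 was between 0.485 and 3.38 in the 12 early libraries and between 6.11 and 46.2 in the 8 late ones. At 7 DPP it was 46.2 in WT mouse 1, 11.1 in WT mouse 2, and 18.7 and 22.7 in the Tnfr2-/- mice. Early and late values did not overlap in either genotype, late being higher, as for 4.97% of all genes in WT and 9.56% in Tnfr2-/- cultures. Duox2 rose by 2.75 ± 0.377 in WT (limma adjusted p = 0.000479) and by 2.75 ± 0.377 in Tnfr2-/- (limma adjusted p = 0.000359). Its genotype difference was 0.18 ± 0.235 over all days (limma adjusted p = 0.705), and its groups overlapped at each day.

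Nos2 was between 0.691 and 5.17 at the early days in both genotypes. At 5 DPP the WT mice had 6.88 and 7.07, against 9.37 and 19.7 for Tnfr2-/-. At 7 DPP the WT mice had 24.2 and 8.38, against 23.9 and 23.6. WT mouse 2 alone stayed low at 7 DPP. The rise was 2.19 ± 0.305 in WT (limma adjusted p = 0.000548) and 2.69 ± 0.305 in Tnfr2-/- (limma adjusted p = 0.000125). The late genotype difference of 0.78 ± 0.334 did not pass (limma adjusted p = 0.183), and leaving out the 7 DPP library of WT mouse 2 gave 0.42. Leaving out that of WT mouse 1 gave 1.14.

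Duoxa2 was at 0 in 3 of the 6 early WT libraries and in 1 of the 6 early Tnfr2-/- libraries, and at most 2.40 in the others. Late values were 5.05 and 39.7 in WT mouse 1, 1.46 and 3.29 in WT mouse 2, 11.2 and 14.8 in Tnfr2-/- mouse 1 and 15.2 and 19.3 in Tnfr2-/- mouse 2. WT mouse 2 was the lowest culture late on, below the highest early value at 5 DPP. Duoxa2 rose by 2.23 ± 0.553 in WT (limma adjusted p = 0.0131), a call lost without either late library of WT mouse 1, and by 3.06 ± 0.553 in Tnfr2-/- (limma adjusted p = 0.00205). Duoxa1 overlaps Duoxa2 on the other strand and was at no more than 1.04. The library kit keeps strand, and the strand setting of the counting is not given in the sources used here. The paralog Duox1, which holds 12.3% of the 31-base words of Duox2, was at no more than 0.184.

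Pigr, which encodes the receptor that carries polymeric IgA across the epithelium, ran high in 1 WT mouse. WT mouse 1 had 8.39, 5.28, 18.9, 158 and 72.7 at the 5 days, while WT mouse 2 had 5.08, 0.678, 0.553, 14.1 and 13.6. Tnfr2-/- mouse 1 had 4.67, 3.47, 4.58, 10.5 and 12.7, and Tnfr2-/- mouse 2 had 4.19, 1.57, 1.86, 9.23 and 16.6. WT mouse 2 lay in the range of the Tnfr2-/- mice at 7 DPP and WT mouse 1 was the highest of the 4 at every day. Pigr rose late in WT by 2.96 ± 0.757 (limma adjusted p = 0.015), a call lost without either late library of WT mouse 1. In Tnfr2-/- it was 1.63 ± 0.757 higher late (limma adjusted p = 0.152), with late values all above early ones, as for 9.56% of all genes. This rise passed with the mouse as a fixed term (adjusted p = 0.00824) but not as a correlated one (adjusted p = 0.0855). The late genotype difference was −1.63 ± 0.829 (limma adjusted p = 0.265), −0.19 without WT mouse 1, and −3.06 without WT mouse 2, where it was called (adjusted p = 0.00114).

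Late against early, 5 of 9 members were called in WT, all higher, namely Saa1, Nos2, Duox2, Duoxa2 and Pigr, against 20.1% of all genes in either direction and 11.6% higher. In Tnfr2-/- cultures 6 of 9 were called, all higher, against 20.3% in either direction and 10.4% higher. These were Saa1, Nos2, Duox2, Duoxa2, C3 with 0.99 ± 0.284 (limma adjusted p = 0.026) and Lcn2 with 1.80 ± 0.598 (limma adjusted p = 0.0482). The Lcn2 call was lost in 11 of 20 fits without a library, the Saa1 call in 8 and the C3 call in 6. With no filter on low values all 3 calls were lost (adjusted p = 0.0987, 0.0702 and 0.0542). Without 1 DPP the Lcn2 call (adjusted p = 0.136) and the C3 call (adjusted p = 0.09) were lost, and that of Lcn2 also with a pseudocount of 0.1 (adjusted p = 0.0523) or no mean-variance trend (adjusted p = 0.0631). C3 in WT changed by 0.21 ± 0.284 (limma adjusted p = 0.639) and Lcn2 by 0.98 ± 0.598 (limma adjusted p = 0.272). The difference between genotypes in these changes is the interaction, which passed for none of the 9 members in the limma fit. S100a8 was −0.97 ± 0.496 late in WT (limma adjusted p = 0.191) and 1.02 ± 0.496 in Tnfr2-/- (limma adjusted p = 0.173). Both values depended on the high libraries at 1 DPP, and without that day they were 0.62 (adjusted p = 0.548) and 1.95 (adjusted p = 0.0491).

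**Figure D3:**
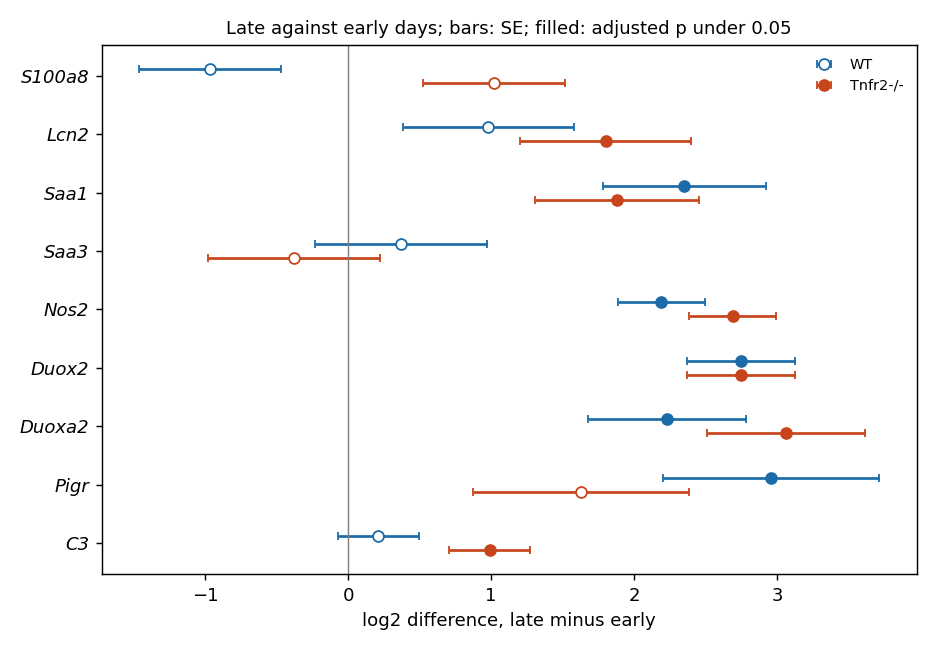
Log2 difference between late (5 and 7 DPP) and early (1 to 3 DPP) libraries (x axis, late minus early, bars are 1 SE) for the 9 tested members in WT (blue) and Tnfr2-/- (red) cultures, with filled symbols for an adjusted p under 0.05. Duox2 sat at 2.75 in both genotypes, whereas S100a8 lay at −0.97 in WT and 1.02 in Tnfr2-/- cultures with open symbols.

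The members fell into partly linked patterns over the 20 libraries, given here as descriptions, since libraries of 1 mouse are repeated samples. Nos2, Duox2 and Duoxa2 were paired at Pearson r of 0.916 to 0.934, and C3 and Lcn2 at 0.919. Pigr and Saa1 had an r of 0.791 and 0.754 with Duox2 and 0.731 with each other, and Saa3 had 0.668 with Lcn2. S100a8 had an r of at most 0.333 with any other member. Of 13538 other tested genes, Duox2 ranked 2nd in likeness to Duoxa2, and Duoxa2 ranked 21st in likeness to Duox2. Saa3 ranked 12407th in likeness to Saa1, and Saa1 ranked 13088th in likeness to Saa3. S100a9 had no rank because it was not tested.
The most similar genes were Serpine2 (r 0.908), Mmd (0.908) and Gap43 (0.901) for S100a8, and Serping1 (0.94), C3 (0.919) and Lamp2 (0.888) for Lcn2. For C3 they were Lamp2 (0.923), Lcn2 (0.919) and Tmed3 (0.887), and for Saa3 they were Cyb5r3 (0.851), Lgi2 (0.846) and Rcn3 (0.834). Nos2 was most like Ret (0.939), Cfb (0.936) and Duox2 (0.934), and Duox2 was most like Clca4b (0.961), Cfb (0.96) and Ccni (0.955). For Duoxa2 they were Il13ra1 (0.94), Duox2 (0.931) and Ero1l (0.923), for Saa1 Pmp22 (0.915), Ces2c (0.877) and Irs2 (0.875), and for Pigr the mucin genes Muc2 (0.935) and Muc3 (0.923) with Abcb1a (0.926).

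**Figure D4:**
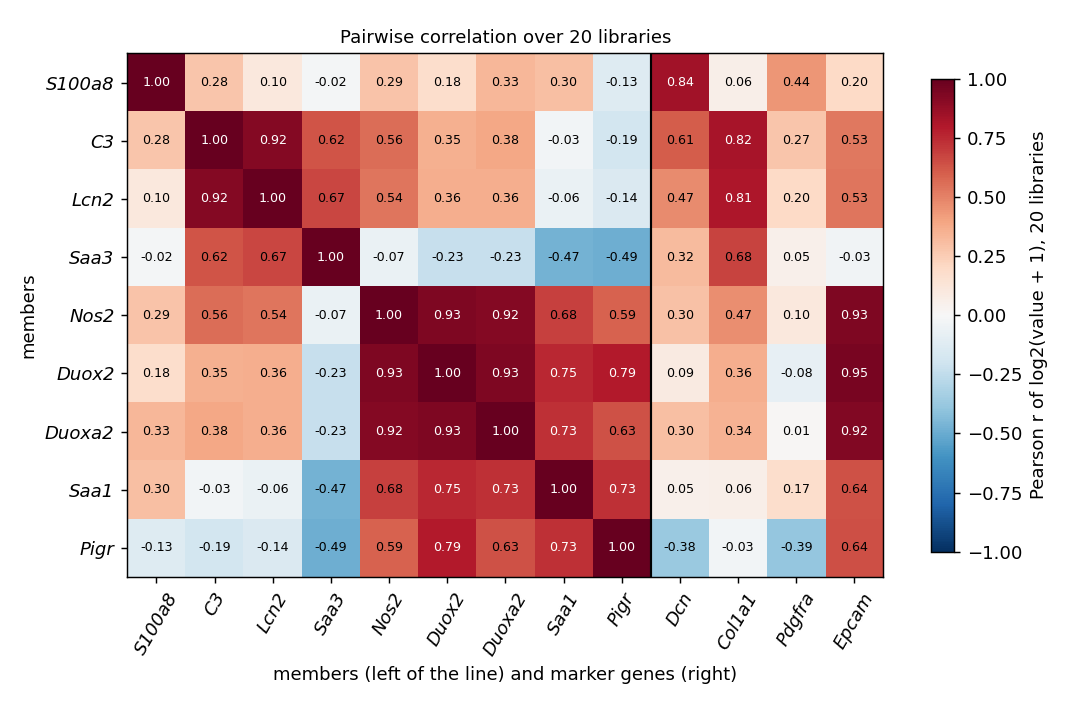
Pearson r of log2(value + 1) over 20 libraries between the 9 tested members (rows and left columns) and with 4 marker genes (right of the line), from −1 in blue to 1 in red. Nos2, Duox2 and Duoxa2 formed a block at 0.916 or more that also followed Epcam, C3 and Lcn2 formed a pair at 0.919, and S100a8 stood apart from the members at r of 0.333 or less while its r with Dcn was 0.839.

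The mice of a genotype differed in a patterned way. In WT, Lcn2 and C3 were higher in mouse 2 at all 5 days, by 1.85 and 0.80 on the log2 scale. Saa1 and Pigr were higher in mouse 1 at all 5 days, with mouse 2 minus mouse 1 at −1.62 and −2.39. In Tnfr2-/- cultures Lcn2 was higher in mouse 2 at all 5 days, by 0.84. With 2 mice per genotype, differences between mice and between genotypes cannot be told apart where 1 mouse stands out.

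Markers of other cells in the cultures moved with several members. In bulk libraries fewer cells of a type and less RNA per cell cannot be told apart. The 8 fibroblast markers summed to between 1194 and 3926 in the late WT libraries and between 3652 and 8327 in the late Tnfr2-/- libraries, and 2 of 8 were called higher late, Dcn and Vim. Dcn, which encodes the matrix proteoglycan decorin, was above WT in Tnfr2-/- at each of the 5 days, like S100a8, and its late difference was 2.74 ± 0.222 (limma adjusted p = 2.16e-05). Pdgfra, which marks fibroblasts too, was between 20.6 and 64.4 late in WT and between 32.4 and 83.2 in Tnfr2-/-, and was not called (0.37 ± 0.3, limma adjusted p = 0.504). Over the 20 libraries S100a8 had an r of 0.839 with Dcn, 0.441 with Pdgfra and 0.061 with Col1a1, while C3 and Lcn2 had 0.824 and 0.807 with Col1a1. The part of fibroblast content in the S100a8, Lcn2 and C3 differences was not tested.

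Of 3 tested macrophage markers 2 were called higher in Tnfr2-/- over all days, Cd68 and Csf1r, and 1, Cd68, was called higher in Tnfr2-/- late (1.35 ± 0.243, limma adjusted p = 0.0064). The list summed to between 11.2 and 20.9 in late WT and between 26.5 and 51.1 in late Tnfr2-/- libraries, while Adgre1 did not exceed 0.151 and C1qa 0.799. Of the 7 epithelial markers 2 were called higher in Tnfr2-/- over all days, Epcam by 0.36 (limma adjusted p = 0.0335) and Cdh1 by 0.25 (limma adjusted p = 0.0221), and none at the late days. Late against early, 3 were called higher in WT and none lower, and 2 higher and 2 lower in Tnfr2-/- cultures. Epcam, the epithelial surface marker, rose by 1.33 in WT and 1.57 in Tnfr2-/-, while the keratin genes Krt8 and Krt19 fell by 0.43 and 0.31 in Tnfr2-/- cultures. Epcam had an r of 0.93 with Nos2, 0.953 with Duox2 and 0.922 with Duoxa2. The epithelial list summed to between 11330 and 19610, so that epithelium was present in all libraries. Of 4 tested goblet markers 4 were called higher late in WT and 3 in Tnfr2-/-. Muc2 was between 23.9 and 395.6 in late WT and between 13.8 and 24.4 in late Tnfr2-/- libraries, a difference that was not called (−2.54 ± 1.13, limma adjusted p = 0.201). Over all days 2 goblet markers were called lower in Tnfr2-/-, Fcgbp by −1.54 and Spdef by −1.14. Of 6 absorptive markers 1, Car1, was called lower late (−4.73 ± 1.19, limma adjusted p = 0.0315). The part of cell composition in the Pigr values was not tested.

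The other genes of these pathways were counted in lists chosen with the earlier results known. Among 11 tested S100 family genes besides the pair, 1 was called higher in Tnfr2-/- late, S100a11 (0.52 ± 0.132, limma adjusted p = 0.034), which was between 2472 and 5152 in all libraries. Late against early, S100a1 rose in both genotypes, by 0.97 and 0.71, S100g rose in Tnfr2-/- by 1.93, and S100a3, S100a4, S100a10 and S100a11 fell in WT. The median late genotype difference of this list was 0.13.

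Of 12 tested acute-phase genes, 3 were called higher in Tnfr2-/- over all days and none lower. Hp, which encodes the hemoglobin scavenger haptoglobin, differed by 1.34 ± 0.243 (limma adjusted p = 0.00292). The metallothioneins Mt1 and Mt2, which bind zinc and copper, differed by 0.69 and 1.30. At the late days 3 were called, Mt1, Mt2 and the pentraxin gene Ptx3, and Hp was not (1.01 ± 0.327, limma adjusted p = 0.0865). Ptx3 differed by 2.15 ± 0.539 (limma adjusted p = 0.0313), with at most 7.998 in WT and between 5.43 and 42.5 in Tnfr2-/- libraries. Late against early, Hp rose in both genotypes, by 1.58 in WT and 1.04 in Tnfr2-/-, and Serpina3n rose in WT by 1.73. The median of the list was −0.17 over all days, beside −0.029 for all genes.

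In the oxidant and nitric oxide list, 3 of 11 tested genes were called higher in Tnfr2-/- over all days. Ass1, whose enzyme helps to regenerate the arginine used by NOS2, was 1.54 ± 0.222 higher late (limma adjusted p = 0.00162). Cyba and Gch1, which encode an NADPH oxidase subunit and the first enzyme of tetrahydrobiopterin synthesis, were 0.54 and 0.42 higher over all days. Nox1, the other main oxidase of colonic epithelium, rose late by 3.49 ± 0.465 in WT (limma adjusted p = 0.000404) and 2.63 ± 0.465 in Tnfr2-/- (limma adjusted p = 0.00181), and its organizer Noxo1 rose by 1.08 and 1.09. Gpx2 rose by 0.76 and 1.09, Noxa1 by 0.90 in WT and Gch1 by 0.70 in Tnfr2-/- cultures. Together 4 of the 11 were called higher and 1, Ass1, lower late in WT, and 5 higher in Tnfr2-/- cultures.

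None of the 11 tested complement genes besides C3 was called between genotypes by limma over all days or late, although 5 had an unadjusted p under 0.05 in each. The list median was 0.20 at the late days. Late against early, 4 were called higher in each genotype. Cfb, which encodes factor B of the alternative pathway and forms the C3 convertase with C3b, rose by 1.83 ± 0.177 in WT (limma adjusted p = 8.35e-05) and 2.04 ± 0.177 in Tnfr2-/- (limma adjusted p = 4.59e-05). C2 and C1ra also rose in both, by 1.25 and 1.09 in WT and 1.21 and 1.10 in Tnfr2-/-. C4b rose in WT by 1.31 and Cd55 in Tnfr2-/- by 0.79. Cfb was between 49.3 and 109 in late WT and between 71.3 and 119 in late Tnfr2-/- libraries, whose ranges overlapped.

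Among 12 tested luminal antimicrobial genes, Slpi, a protease inhibitor of mucosal secretions, was the 1 called higher in Tnfr2-/- late (1.65 ± 0.444, limma adjusted p = 0.0428). Over all days Wfdc2 was called higher and Lyz1 lower. Wfdc2 fell late in both genotypes, by 0.82 and 1.02. Lypd8, Ang4 and Pglyrp1, whose products act on gut bacteria, rose late in both genotypes, Lypd8 by 4.50 and 3.95.

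The inducers and regulators list held 25 tested genes, of which 8 were called higher in Tnfr2-/- late and none lower. Il6 was between 0 and 3.95 in late WT and between 24.4 and 44.5 in late Tnfr2-/- libraries, a difference of 4.58 ± 0.417 (limma adjusted p = 5.53e-05). Tnf was between 7.10 and 22.3 against 28.3 and 37.0, a difference of 1.17 ± 0.292 (limma adjusted p = 0.0302). Cebpb and Cebpd, which encode factors that bind the C/EBP motif, were 1.23 and 0.99 higher (limma adjusted p = 0.00862 and 0.00629), and Socs3, an inhibitor induced by STAT3, was 1.41 higher (limma adjusted p = 0.014). Cebpa, the other C/EBP gene tested, was −0.16 ± 0.212 late (limma adjusted p = 0.705) and rose late in WT by 0.62. Late Cebpb ranged from 9.64 to 14.7 in WT and from 22.8 to 51.8 in Tnfr2-/- libraries. Nfkbiz was 0.69 higher late, and over all days 5 of the 25 were called higher, Il6, Socs3, Nfkb2, Il1a and Nfkbiz. Il6 also passed for the interaction (3.38 ± 0.538, limma adjusted p = 0.0403). Between early and late, Ifngr2 rose in both genotypes, Il10rb in WT, and Il6 and Tnf in Tnfr2-/- cultures. Cebpb and Cebpd fell in WT by 0.87 and 0.84 and were not called in Tnfr2-/- cultures. Of the 25 genes, 13 were called higher late in Tnfr2-/-, and 6 higher and 2 lower in WT, the lower being Cebpb and Cebpd.
Of 10 genes listed as receptors for the members' products, 4 passed the mean of 1. Tlr4, through which S100A8 is known to signal, was between 9.74 and 24.7, while Ager and the complement receptors C3ar1 and C5ar1 did not exceed 2.76, 1.40 and 1.07. Cd81, whose role as such a receptor was not established here, was the 1 gene of this list called. It was 0.33 higher in Tnfr2-/- over all days and rose late by 0.67 in WT and 0.49 in Tnfr2-/-.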

How the data were processed

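Total RNA of 20 colonoid libraries was sequenced from a stranded mRNA kit as single-end reads. For each transcript the deposited value is a signal, TPM after division by the size factor of its library, made by the authors with kallisto and sleuth on mm10 transcripts. CASAVA is also named in the submitters' processing notes. The transcript index and strand setting are not given in the sources used here. The table also holds the authors' deposited p-values and q-values, a deposited natural log mean, and scores of the authors' model. None of these was used. No column was left unmapped.

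Of 113974 lines, 781 repeats were dropped. The remaining 113193 transcripts were summed per gene symbol, and 199 without a gene, at most 0.0989% of a library, were left out. Because the files held neither plain TPM nor counts, which the plan had foreseen, the rule for normalised values was used. The log2(value + 1) of genes with a mean of at least 1 was fitted with limma 3.58.1 (R 4.3.3, mean-variance trend), with Benjamini-Hochberg adjustment over all 13539 genes. The model for genotype over all days had day and genotype, and that for all other contrasts had the 10 group means. The pseudocount understates changes of low genes. The script was tested on simulated data. Tables and figures were made with pandas 2.3.3 and matplotlib 3.10.9.

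The members and lists were chosen with earlier results of these data known. The text names all members, Tnfrsf1b, up to 4 called genes of each list per comparison by adjusted p (1 such gene is not reported here), genes tied by role to a member, and the 3 most correlated genes of each member. Tnf, Socs3, Gch1 and the marker genes are named for their role. S100a4, a further called gene, was added after its values were seen.

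Replicate numbers were read as mice. Deviations of libraries of 1 mouse at different days correlated at 0.1 to 0.307 in WT and −0.051 to 0.08 in Tnfr2-/- cultures. Those of equal numbers in different genotypes correlated at −0.054 to 0.076. The Tnfr2-/- median of 0.0385 was close to that between genotypes, 0.037. In Tnfr2-/- cultures the values thus do not show that a number followed 1 mouse over the days. Libraries of a mouse are repeated samples, so p-values over several days can be too small. Alternatives were another pseudocount, no filter, median-of-ratios scaling, no trend, sums per Ensembl gene, mouse blocks, mouse means, each library or mouse left out, and, chosen after seeing the data, no 1 DPP.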

Additional observations from a re-analysis of the deposited data

Results flagged for a closer look

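In 36 groups of 4 to 10 libraries, formed for the members by genotype and phase, 2 held a library whose gap to the nearest of the others exceeded Dixon's 95% critical value, and chance alone marks about 1 in 20 such groups. Nos2 in WT mouse 1 at 7 DPP, at 24.2, stood apart from the other late WT libraries, which lay between 6.88 and 8.38. C3 in Tnfr2-/- mouse 1 at 5 DPP, at 169, stood below the other late Tnfr2-/- libraries, which lay between 237 and 253. Neither value was left out.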

How the results depend on the processing

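With 2 mice per genotype and no read numbers in the files, small differences and values of a few units are weakly held. The genes called between genotypes were 545 over all days with the mouse as a correlated block (1029 in the fit used) and 7 on mouse means, 0 late on mouse means (1859 at an unadjusted p under 0.05), and 3 early on mouse means. Early calls were 280 with the replicate number as a block and 51 without 1 DPP. Interaction calls were 10 with a pseudocount of 0.1, 55 with no filter, 47 and 163 with the mouse as a correlated or fixed block, 1 on mouse means and 1 without 1 DPP. Without 1 DPP 1524 genes were called late against early in WT. Of the members, only S100a8 was called over all days with no filter, the correlated mouse block, mouse means, no trend or no 1 DPP. Late, only S100a8 was called with a pseudocount of 0.1, no filter or no trend, and 0 members on mouse means. Late against early in Tnfr2-/- cultures 3 were called with no filter. The cause of these changes was not tested.

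With the replicate number as a block, which joins different animals of the 2 genotypes, Saa3 over all days (adjusted p = 0.017) and Lcn2 late (0.00371) were called. Neither passed on mouse means (0.459 and 0.287) or under a correlated block per mouse (0.0929 and 0.0896). With the mouse fixed, Lcn2 late against early in WT was called (0.00642), and with the mouse correlated it was not (0.175). Signs turned for Saa1 early without 1 DPP (0.35), for the Duox2 interaction with a pseudocount of 0.1 (−0.12) and without 1 DPP (−0.06), and for S100a8 (0.62) and Saa3 (−0.24) late against early in WT without 1 DPP. None of these 5 was called in either fit. Scaling by median of ratios and sums per Ensembl gene turned no sign, and the former called Saa3 over all days (adjusted p = 0.0475).

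Leaving out each library, or a whole mouse, gave 146 to 1931 genes and 0 to 6 members over all days, 19 to 2186 and 0 to 6 late, 14 to 720 and 0 to 4 early, 3 to 136 and 0 to 1 for the interaction, 1511 to 2893 and 2 to 6 late against early in WT, and 1811 to 2901 and 3 to 7 in Tnfr2-/-. The fewest came without a Tnfr2-/- mouse and the most without WT mouse 2 for the genotype counts over all days, late and early. S100a8 stayed between 2.07 and 2.62 over all days and between 2.88 and 4.38 late, and lost its call only without Tnfr2-/- mouse 1 or 2. Differences that turned sign ranged over all days from −1.29 to 0.32 (Saa1), −0.22 to 0.58 (Duox2) and −2.02 to 0.37 (Pigr). Late they ranged from −1.83 to 0.29 (Saa1), −0.55 to 2.28 (Saa3) and −0.6 to 0.96 (Duox2). Early they ranged from −0.04 to 2.14 (Lcn2), −0.94 to 0.34 (Saa1), −0.09 to 0.45 (Duox2), −0.32 to 0.96 (Duoxa2), −1.33 to 0.74 (Pigr) and −0.04 to 0.76 (C3). The interaction ranged from −1.19 to 0.24 (Saa1), −1.68 to 0.18 (Saa3) and −0.49 to 0.5 (Duox2). WT late against early ranged from −0.56 to 1.3 (Saa3), −0.02 to 0.45 (C3) and −0.07 to 0.23 (Tnfrsf1b).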
